A study of Mus musculus with 11 samples.

Results

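The adipocyte genes analyzed here were 10 genes taken as a group by their symbols, *Adipoq*, *Plin1*, *Plin4*, *Cfd*, *Lep*, *Cidec*, *Fabp4*, *Pparg*, *Lipe* and *Retn*, and each was present among the 45777 genes of the deposited expression table. They were measured by RNA sequencing of skin and small intestine from BALB/c mice aged 8 to 10 weeks, described only as female or male. The mice were shaved and received 62.5 mg of cream daily on the back and right ear. Control mice received Vaseline and IMQ-treated mice received Aldara cream with 5% imiquimod (IMQ), a ligand of Toll-like receptor 7 that induces psoriasis-like dermatitis. The annotation gives 5 to 8 days of treatment without the days of each mouse, and the methods give a shorter range and name the back alone. Skin was sequenced from 3 control mice (libraries 1 to 3) and 3 IMQ-treated mice (libraries 4 to 6), and small intestine from 3 control mice (libraries 7 to 9) and 2 IMQ-treated mice (libraries 10 and 11). None of the sources states which tissues came from one mouse, which part of the small intestine was taken or how much subcutaneous or mesenteric fat was left on the tissue.

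White adipocytes store triglyceride in a single large lipid droplet, release it as fatty acids between meals and secrete hormones that report on energy stores. In the skin they form the dermal white fat beneath the dermis, which surrounds the hair follicles and thickens and thins with the hair cycle. In the small intestine, adipocytes lie in the mesentery outside the gut wall, whereas the absorptive enterocytes of the villi handle dietary fat with some of the same machinery.

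By role, *Adipoq* (adiponectin), *Lep* (leptin), *Cfd* (complement factor D, or adipsin) and *Retn* (resistin) encode secreted adipokines. *Plin1*, *Plin4* and *Cidec* encode coat proteins of the lipid droplet, *Lipe* encodes hormone-sensitive lipase, *Fabp4* encodes a fatty acid-binding protein of the cytosol, and *Pparg* encodes the nuclear receptor that drives the adipocyte program. Because levels are from whole tissue, fewer cells of a type and less RNA per cell cannot be told apart.

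The 10 genes lie at separate places in the genome (GRCm38). *Adipoq* is at chr16:23146536-23157968 on the plus strand, *Lep* at chr6:29060221-29073876 on the plus strand, *Cfd* at chr10:79890853-79892655 on the plus strand and *Retn* at chr8:3655770-3659818 on the plus strand. *Plin1* is at chr7:79721164-79732904, *Plin4* at chr17:56100587-56109948 and *Cidec* at chr6:113424634-113435760, each on the minus strand. *Fabp4* is at chr3:10204342-10208616 and *Lipe* at chr7:25379527-25398486, both on the minus strand, and *Pparg* is at chr6:115360879-115490404 on the plus strand. *Plin4* overlaps *Hdgfl2*, *Pparg* overlaps the antisense gene *Gm44079* and *Lipe* overlaps the antisense gene *4732471J01Rik*, each on the opposite strand, and since the strand setting of the counting was not stated, reads of these pairs may be mixed.

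Promoters are shown for 4 members because PPARG and C/EBP factors are the classical regulators of these genes. RefSeq promoters on GRCm38 were matched for 9 of the 10 members, with 13 promoters in all, and those of *Adipoq*, *Lep*, *Cidec* and *Pparg* are given as the 250 bases before the start, 5′ to 3′ on the strand of the gene. Capitals mark matches to the C/EBP motif TTNCNNAA on either strand. Each promoter printed holds a match, whereas those of *Plin4*, *Cfd*, *Lipe* and *Retn* and the first and second of *Pparg* held none. The regions are chr16:23146286-23146535 (plus strand) for *Adipoq*, chr6:29059971-29060220 (plus strand) for *Lep*, chr6:113435761-113436010 (minus strand) for the first *Cidec* promoter and chr6:115421816-115422065 (plus strand) for the third *Pparg* promoter.
Adipoq: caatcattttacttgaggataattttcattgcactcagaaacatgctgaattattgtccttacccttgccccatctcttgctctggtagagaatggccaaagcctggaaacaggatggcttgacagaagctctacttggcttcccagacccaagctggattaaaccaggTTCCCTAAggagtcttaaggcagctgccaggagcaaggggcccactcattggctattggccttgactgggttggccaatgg
Lep: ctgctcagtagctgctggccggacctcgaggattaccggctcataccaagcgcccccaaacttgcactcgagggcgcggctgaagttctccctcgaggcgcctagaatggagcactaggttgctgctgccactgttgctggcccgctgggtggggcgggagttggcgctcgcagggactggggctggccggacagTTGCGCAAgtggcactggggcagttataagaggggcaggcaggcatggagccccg
Cidec: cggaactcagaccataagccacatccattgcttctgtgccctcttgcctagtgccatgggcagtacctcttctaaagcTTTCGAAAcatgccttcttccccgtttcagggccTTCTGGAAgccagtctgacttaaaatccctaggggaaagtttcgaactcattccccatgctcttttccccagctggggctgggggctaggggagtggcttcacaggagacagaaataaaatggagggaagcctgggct
Pparg: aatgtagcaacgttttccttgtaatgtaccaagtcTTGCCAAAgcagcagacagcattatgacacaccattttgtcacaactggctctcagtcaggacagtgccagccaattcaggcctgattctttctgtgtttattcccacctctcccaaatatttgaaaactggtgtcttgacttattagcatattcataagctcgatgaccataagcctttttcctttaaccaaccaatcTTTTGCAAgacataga

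The C/EBP motif was present in 6 of the 13 promoters of 300 bases, against 40.7% of the 32851 promoters of the same length. In *Lep* the match was a palindrome 55 to 48 bases before the start, read on both strands at the same place. A pair of AGGNCA half-sites in the same direction and 1 base apart, the element read by PPARG with RXR, was in 0 of the 13, against 0.381% of promoters. TATAAA was in 1 of the 13, another *Pparg* promoter, against 13.6%. These matches describe letters in these windows and are not evidence of binding. Expression was given per gene, so the start sites of *Pparg*, *Cidec* and *Lipe* could not be told apart.

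The libraries held 44995414 to 58526384 counts, of which the 10 genes took 0.152% to 0.288% in skin and 0.0161% to 0.0272% in small intestine. Skin control library 2 stood apart. It held 252.3 CPM (counts scaled to the total of the library) of 8 intestinal epithelial genes (*Vil1*, *Lct*, *Sis*, *Fabp2*, *Alpi*, *Cdh17*, *Cdx2* and *Apoa4*), 1.26% of their mean level in the control small intestine, against 0.419 to 6.71 in the other 5 skin libraries. It also held 119.4 CPM of 8 hair follicle genes, against 467.5 and 662.3 in the other control skin libraries and 66.1 to 83.2 in the IMQ libraries. For the 10 genes, the gene lists of skin and the genes that moved by more than 1.5 times, values without it are therefore given as well. The defining markers of the epidermis (*Krt5*, *Krt14*, *Krt1* and *Krt10*) were abundant in every skin library and those of the intestinal epithelium in every intestinal library. Nothing in the annotation states that replicates were pooled or repeated. Each library was taken as a separate mouse within its tissue. The p-values of edgeR rest on the spread between these libraries, with information shared across genes.

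The first comparison asked how the 10 genes were distributed between the tissues of control mice. In control skin they were expressed over a wide range, from *Fabp4* at 727.9 ± 219.8 and *Cfd* at 615.7 ± 68.9 FPKM (read level scaled for transcript length and library size, mean ± SD, n = 3) to *Lep* at 11.9 ± 7.86 FPKM. *Retn* was at 120.1 ± 25.0 FPKM, *Adipoq* at 115.5 ± 59.5 and *Cidec* at 89.1 ± 33.9. These 3 neighbors in the order had overlapping libraries, as did *Fabp4* and *Cfd*. *Plin1* at 47.9 ± 16.2 FPKM, *Plin4* at 44.2 ± 13.7 and *Lipe* at 40.5 ± 10.3 formed the next group, with overlapping libraries as well. *Pparg* was at 19.5 ± 2.44 FPKM and overlapped *Lep* through skin control library 2. By FPKM, *Fabp4* ranked 60 and *Cfd* 80 among the 27580 genes above 0 in control skin.

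**Figure D1:**
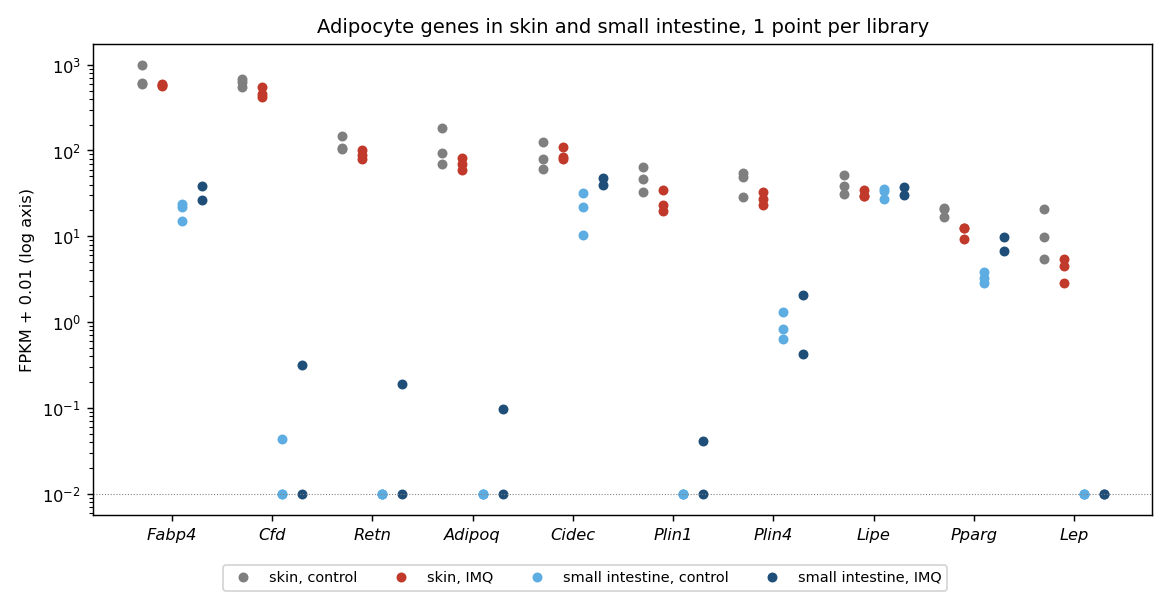
FPKM of the 10 genes in each library (1 point per library, log axis, 0.01 added so that a value of 0 sits on the dotted line), ordered by the mean of control skin. The adipokines and *Plin1* sat between 2.86 and 681.9 FPKM in skin and at or below 0.309 in the small intestine, whereas *Lipe* and *Cidec* were present in both tissues.

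In the small intestine the 10 genes fell into 5 with almost no counts and 5 that were expressed, and the droplet coat genes were on both sides. The adipokine genes *Adipoq*, *Lep* and *Retn* and the droplet coat gene *Plin1* had 0 counts in each of the 3 control libraries. Against a floor of 3 counts per library, their level in control skin was at least 2727-fold higher for *Adipoq*, 1745-fold for *Plin1*, 1363-fold for *Retn* and 746-fold for *Lep*. *Cfd* had 0, 0 and 3 counts, and its ratio of skin to small intestine was 32840 (exact Poisson 95% interval 11237 to 159245, counting error only). The other 5 genes had counts in every intestinal library and could be tested.

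Control skin was compared with control small intestine with the quasi-likelihood test of edgeR (adjusted by the Benjamini-Hochberg method, as throughout), in which 51.9% of the 18890 genes tested differed. *Plin4*, *Fabp4*, *Pparg* and *Cidec* were higher in skin, 4 of the 5 members tested, and the 5 not tested are those near 0 in the gut. For *Plin4*, control skin had 48.45, 55.29 and 28.88 FPKM against 0.616, 1.304 and 0.814 in control small intestine. The log2 difference in a fit of both tissues was 5.16 (SE 0.41, edgeR adjusted p = 3.95e-05). For *Fabp4* the log2 difference was 4.73 (SE 0.33, edgeR adjusted p = 2.34e-05) and for *Pparg* 1.97 (SE 0.20, edgeR adjusted p = 0.000133). *Cidec* differed less, by 1.52 (SE 0.48, edgeR adjusted p = 0.0307), and was called in 3 of the 6 fits that left out 1 library, with an adjusted p of 0.0685 without skin control library 2. *Lipe* gave −0.09 (SE 0.24, edgeR adjusted p = 0.788). On the FPKM scale it was at 40.5 ± 10.3 in control skin and 32.1 ± 4.11 in control small intestine, with overlapping libraries, so a difference was not detectable, and its sign changed with the unit (0.31 with limma on log2(FPKM + 0.01)).

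The second comparison asked how the genes responded in the treated skin. Their levels were lower on average in IMQ-treated skin, with a log2 fold change below 0 for 9 of 10 and a median of −0.51, against 51.6% of genes below 0 and a median of −0.01 over the 20512 genes tested. None of the 10 passed the quasi-likelihood test of edgeR at an adjusted p under 0.05, against 6.74% of the genes tested. At an unadjusted p under 0.05 there were 3 (*Lep*, *Plin1* and *Pparg*), against 4753 of all 20512 genes tested. DESeq2, which called 14.5% of genes, called 2 (*Lep* and *Pparg*). Every IMQ library was below every control library for 2 of the 10 (*Pparg* and *Retn*), against 13.3% of genes.

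All 10 genes were highest in skin control library 2 among the 6 skin libraries, from 1.22 times the mean of control libraries 1 and 3 for *Pparg* to 2.94 times for *Lep*. The mean of the 10 genes, each taken relative to its own average over the skin on the log2 scale, was 1.13, 1.74 and 0.863 times that average in control libraries 1 to 3 and 0.975, 0.769 and 0.787 in IMQ libraries 4 to 6. Control library 3 thus lay within the range of the IMQ libraries. Without control library 2, 8 of the 10 genes were below 0 and their median was −0.18, against 0.01 over all genes. The intestinal and hair follicle values of that library are given above, and their part in its adipocyte levels was not tested.

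**Figure D2:**
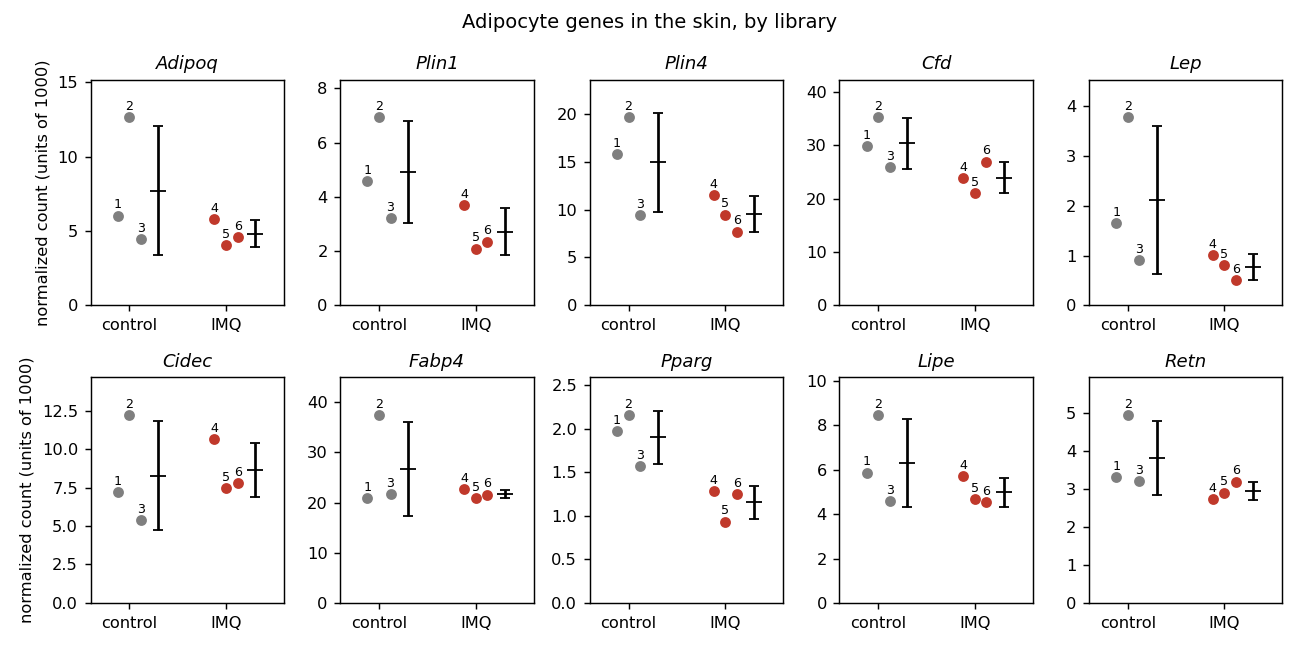
Normalized counts (in units of 1000) of the 10 genes in each skin library, labelled by library number, with the mean and SD of each group beside the points. Control library 2 was the highest for each gene, and for *Pparg* the 3 IMQ libraries (934 to 1283) lay below the 3 controls (1573 to 2160).

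Among the adipokines, *Lep*, which encodes the satiety hormone released in proportion to fat mass, had the largest difference. Its normalized counts were 1659, 3781 and 913.5 in control skin and 1011, 805.2 and 499.4 in IMQ-treated skin. The lowest control lay below the highest IMQ library, so the groups overlapped. The log2 fold change was −1.46 (SE 0.52, edgeR adjusted p = 0.156), and it ranged from −1.82 to −0.73 when 1 library was left out, with the smallest size without control library 2. *Adipoq*, the insulin-sensitizing adipokine, had 6029.6, 12645 and 4454 normalized counts in controls and 5806, 4051 and 4577 in IMQ-treated skin. Control library 2 was alone above the others, and the log2 fold change of −0.68 (SE 0.38, edgeR adjusted p = 0.339) became −0.12 without it.

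*Cfd*, which cleaves factor B in the alternative complement pathway, had 29856, 35232 and 25878 normalized counts in controls and 23839, 21003 and 26906 in IMQ-treated skin. Only 1 IMQ library reached the lowest control, and the log2 fold change was −0.34 (SE 0.17, edgeR adjusted p = 0.294), or −0.22 without control library 2. *Retn* had 3316, 4943 and 3196 normalized counts in controls and 2731, 2902 and 3194 in IMQ-treated skin. The groups did not overlap but nearly touched, and the log2 fold change of −0.38 (SE 0.19, edgeR adjusted p = 0.287) became −0.14 without control library 2.

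Of the droplet coat genes, *Plin1*, whose protein guards the droplet against lipases, had 4579, 6931 and 3212 normalized counts in controls and 3695, 2089.6 and 2346 in IMQ-treated skin. The lowest control lay between the IMQ libraries, and the log2 fold change was −0.86 (SE 0.33, edgeR adjusted p = 0.178), or −0.52 without control library 2. *Plin4*, a perilipin of nascent droplets, had 15807, 19682 and 9442 against 11496, 9492 and 7706, with control library 3 inside the range of the IMQ libraries. Its log2 fold change was −0.65 (SE 0.28, edgeR adjusted p = 0.232), or −0.40 without control library 2. *Cidec*, which promotes the fusion of droplets, was the exception to the direction of the group. It had 7228, 12228 and 5371 normalized counts in controls and 10682, 7457 and 7797 in IMQ-treated skin, and the IMQ libraries lay within the controls. The log2 fold change was 0.06 (SE 0.31, edgeR adjusted p = 0.932) and took both signs when single libraries were left out, with 0.46 without control library 2.

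Of the genes of fatty acid release and transport, *Lipe* had 5870.4, 8467 and 4571 normalized counts in controls and 5712, 4669.7 and 4546 in IMQ-treated skin, with a log2 fold change of −0.34 (SE 0.23, edgeR adjusted p = 0.435). *Fabp4* had 20835, 37435 and 21607 against 22634, 20901 and 21581, with a log2 fold change of −0.29 (SE 0.24, edgeR adjusted p = 0.523). Both differences rested on control library 2, without which they were −0.07 for *Lipe* and 0.03 for *Fabp4*.

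*Pparg* had the most even difference. Its normalized counts were 1977, 2160.2 and 1573 in control skin and 1283, 933.7 and 1248 in IMQ-treated skin. Each IMQ library lay below each control. The log2 fold change was −0.72 (SE 0.18, edgeR adjusted p = 0.0605), just outside the threshold, and −0.62 without control library 2 (edgeR adjusted p = 0.0846). The adjusted p was 0.0082 by DESeq2, 0.0428 in one edgeR fit of all 11 libraries and 0.0454 by limma on log2(FPKM + 0.01), so the call depended on the method while the direction was the same. Without control library 3, the lowest of the controls for *Pparg*, the edgeR adjusted p was 0.0495.

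Other lipid-rich and dermal cells were examined with marker lists. Of 10 sebaceous gland genes, 10 had a log2 fold change below 0 in skin (median −1.18) and 3 fell (*Awat2*, *Far2* and *Fa2h*), and their summed level was 1054 to 1754 FPKM in controls and 604.3 to 1009 in IMQ-treated skin, with no gene at 0. The median was −1.01 and 1 fell (*Awat2*) without control library 2. Of 9 hair follicle genes, 7 were tested, each below 0 (median −3.10), and 5 fell, or 7 without control library 2 (median −3.56). Of 8 dermal fibroblast genes, 0 were called by edgeR (1 at an unadjusted p under 0.05, median −0.35), and of 8 skeletal muscle genes, 0 were called (0 at an unadjusted p under 0.05, median −0.30). These medians were −0.39 and −0.11 without control library 2. Of all 20512 genes tested, 4753 had an unadjusted p under 0.05 in the main fit. Of 8 macrophage genes, 7 were above 0 and 3 rose (*Adgre1*, *Lyz2* and *C1qa*). The summed level of the list was 391.5 to 577.8 FPKM in controls and 824.4 to 1121 in IMQ-treated skin. *Mertk* was below 0, with each IMQ library below each control (log2 fold change −0.36, edgeR adjusted p = 0.178). Without control library 2, 2 rose, and *Lyz2* did not pass the test (edgeR adjusted p = 0.0521). Of 8 genes of the capillary endothelium, whose cells can also express *Pparg* and *Fabp4*, 7 were above 0 (median 0.54) and 3 rose (*Pecam1*, *Emcn* and *Tie1*), with summed levels of 70.8 to 89.9 FPKM in controls and 101.3 to 136.4 in IMQ-treated skin. Without control library 2, 4 rose (median 0.70). The part of any of these cells in the levels of the 10 genes was not tested.

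The third comparison asked whether the genes changed in the small intestine, to which no cream was applied. Of the 5 genes that could be tested, 5 had a log2 fold change above 0 with a median of 0.72. Over the 19965 genes tested, 46.3% were above 0 and the median was −0.02. Without IMQ library 10, which left 1 library in that group, 4 of the 5 were above 0 (median 0.50). *Pparg* was the 1 member that rose, while 2.95% of the genes tested passed the quasi-likelihood test of edgeR. For 3 of the 5 (*Pparg*, *Cidec* and *Fabp4*), each IMQ library lay above each control, against 15.1% of genes. The 5 tested are those with a count in every intestinal library and do not stand for all 10.

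*Pparg* had 442.6, 314.5 and 400.8 normalized counts in control small intestine and 1161 and 832.7 in IMQ-treated mice. Both IMQ libraries lay well above the 3 controls. It rose 2.58-fold, a log2 fold change of 1.37 (SE 0.22, edgeR adjusted p = 0.0195). The fold stayed between 1.12 and 1.59 on the log2 scale when 1 library was left out, but the call held in 2 of these 5 fits and was lost without IMQ library 10 (edgeR adjusted p = 0.159), control library 8 (0.0521) or control library 9 (0.0780). With IMQ library 11 alone in its group, its spread was assumed to be that of the controls. With limma on log2(FPKM + 1) the adjusted p was 0.0763.

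*Cidec* had 2344, 1013 and 3534 normalized counts in controls and 4089.6 and 5311 in IMQ-treated mice, higher in both IMQ libraries but with controls that spread more than 3-fold. The log2 fold change was 1.03 (SE 0.44, edgeR adjusted p = 0.404). *Fabp4* had 957.8, 819.6 and 616.9 against 1509 and 1127, also without overlap, with a log2 fold change of 0.72 (SE 0.22, edgeR adjusted p = 0.193). *Lipe* had 4637, 5188 and 6167 against 6279 and 5572, with overlapping groups and a log2 fold change of 0.15 (SE 0.16, edgeR adjusted p = 0.801).

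*Plin4* was the least even, with 221.3, 472.8 and 302 normalized counts in controls and 753.5 and 170.8 in IMQ libraries 10 and 11, which were the highest and the lowest of the 5. Its log2 fold change was 0.48 (SE 0.58, edgeR adjusted p = 0.840), and −0.95 without IMQ library 10.

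IMQ library 10 was also the intestinal library with the most counts of the adipocyte-restricted genes. It had 7 counts of *Adipoq*, 4 of *Plin1*, 17 of *Cfd*, 8 of *Retn* and 0 of *Lep*, which for the first 4 is 0.0476% to 0.178% of their level in control skin, whereas IMQ library 11 had 0 counts of each of the 5 and the controls had 0 but for the 3 of *Cfd*. The 8 epidermal genes summed to 1.5 CPM in library 10 and 1.47 to 3.90 CPM in the other intestinal libraries, and the 8 skeletal muscle genes to 10.9 against 4.45 to 7.85. Of 6 mesothelial genes, the summed level was 443.6 and 547.1 FPKM in IMQ-treated mice and 607.5 to 804.3 in controls, mostly from *Krt19*, which enterocytes also express. *Pparg*, *Cidec* and *Fabp4* were above the controls in library 11 as well, where the 5 adipocyte-restricted genes were at 0. These are values of 1 library, and the part of attached fat in the intestinal differences was not tested.

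Marker genes of cells of the gut wall that can express *Pparg* or *Fabp4* were examined in the same way. Of 8 macrophage genes, 8 were above 0 and 3 rose (*Adgre1*, *Cd68* and *C1qa*), and their summed level was 207.7 to 270.5 FPKM in controls and 441.9 and 465.5 in IMQ-treated mice. Of 8 endothelial genes, 8 were above 0 and 1 rose (*Pecam1*), with summed levels of 28.8 to 44.6 against 65.1 and 74.8 FPKM. Of 9 genes of the intestinal epithelium, 0 were called by edgeR, with 7 below 0 (median −0.22). At an unadjusted p under 0.05 there were 2, against 2452 of all 19965 genes. Both IMQ libraries lay above each control for *Apoa4* and *Alpi* and below each control for *Epcam* (log2 fold change −0.39, edgeR adjusted p = 0.632). No gene of the macrophage and endothelial lists was at 0 in any intestinal library. The part of these cells in the difference of *Pparg* was not tested.

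**Figure D3:**
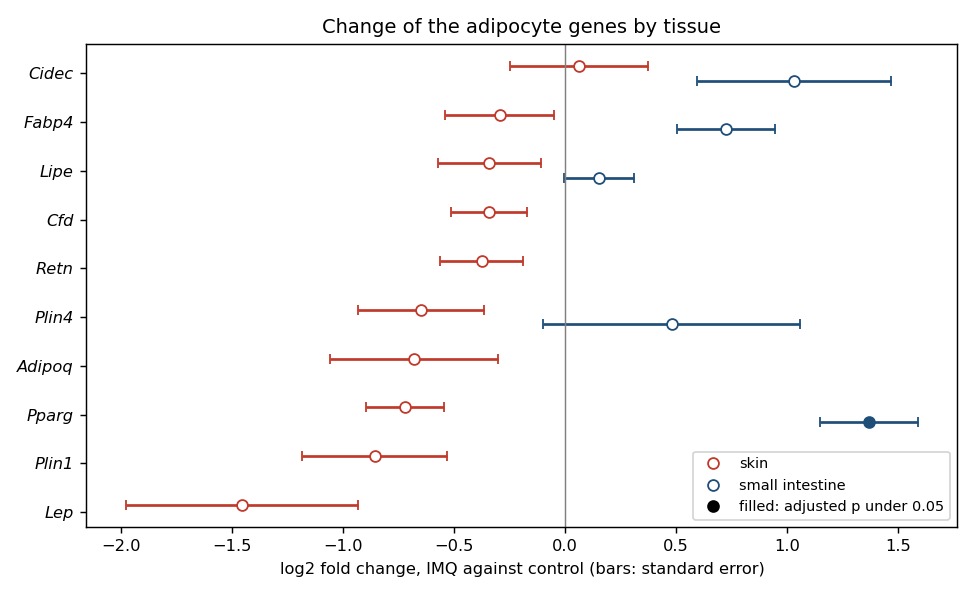
Log2 fold change of IMQ-treated against control mice with its standard error, in skin for the 10 genes and in small intestine for the 5 that were tested (filled: adjusted p under 0.05). For *Pparg* the skin value (−0.72) and the intestinal value (1.37) lay on opposite sides of 0. The same held for *Plin4* (−0.65 and 0.48), *Fabp4* (−0.29 and 0.72) and *Lipe* (−0.34 and 0.15), none called in either tissue. For *Cidec* both values were above 0 (0.06 and 1.03).

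The responses of the tissues were then compared in one model of all 11 libraries, in which 2.55% of 18108 genes had an interaction of tissue and treatment. *Pparg* was the 1 member of 5 with such an interaction. Its response in the small intestine exceeded that in the skin by 2.10 on the log2 scale (SE 0.30, edgeR adjusted p = 0.00598), and this call held in each of the 11 fits that left out 1 library and in each of the 6 other settings. For *Fabp4* the difference was 1.03 (SE 0.37, edgeR adjusted p = 0.182), for *Plin4* 1.14 (SE 0.69, edgeR adjusted p = 0.456), for *Cidec* 0.99 (SE 0.61, edgeR adjusted p = 0.465) and for *Lipe* 0.51 (SE 0.32, edgeR adjusted p = 0.473). The 5 differences were above 0, but the 4 last did not pass the test. This model and the comparison of control tissues use the same control libraries as the comparisons within each tissue.

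Relatives of the 10 genes from the same families differed in where they were expressed and how they responded. In the fatty acid-binding protein family, *Fabp5* of the epidermis was at 409.6 FPKM in control skin and 1508 in IMQ-treated skin and rose (log2 fold change 1.94, SE 0.26, edgeR adjusted p = 0.0105, called in 4 of 6 fits without a library), while *Fabp4* was at 727.9 and 578 FPKM. *Fabp1* and *Fabp2*, the fatty acid carriers of enterocytes, were at 2429 and 4439 FPKM in control small intestine, where *Fabp4* was at 20.4. In IMQ-treated mice *Fabp1* was at 5876 FPKM, with each IMQ library above each control (log2 fold change 1.31, SE 0.46, edgeR adjusted p = 0.276).

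Among perilipins, *Plin2*, the coat of small droplets in many cell types, was at 40.7 FPKM in control small intestine and 85.7 in IMQ-treated mice and rose (log2 fold change 1.07, SE 0.18, edgeR adjusted p = 0.0232), a call that held in 1 of the 5 fits without a library. In skin *Plin2* gave −0.59 (SE 0.27, edgeR adjusted p = 0.246). *Plin3* was the most abundant perilipin of the small intestine at 117.1 FPKM, and *Plin1* was at 0 in each intestinal library but IMQ library 10, where it had 4 counts. Among the CIDE proteins the tissues divided the family. *Cidea*, known from brown fat and sebaceous glands, was at 50.5 FPKM in control skin and 0.181 in control small intestine, and *Cideb*, which acts in the secretion of lipoproteins, was at 0.136 and 142.1 FPKM. *Cidea* fell in IMQ-treated skin (log2 fold change −1.18, SE 0.27, edgeR adjusted p = 0.0493, or 0.0734 without control library 2, called in 1 of 6 fits without a library), where *Cidec* gave 0.06.

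The PPAR genes did not all have the same direction in skin. *Ppard*, which is expressed in keratinocytes, rose (log2 fold change 0.91, SE 0.16, edgeR adjusted p = 0.0242, called in 3 of 6 fits without a library), *Ppara* fell (−1.17, SE 0.27, edgeR adjusted p = 0.0495, or 0.0712 without control library 2) and *Pparg* gave −0.72 without passing the test. Each IMQ library lay below each control for both *Ppara* and *Pparg*, and the difference between the genes was not tested. In the small intestine *Ppara* gave 0.15 and *Ppard* −0.30, neither of which was called, beside the rise of *Pparg*. *Ppard* was the most abundant of the 3 in control small intestine at 34.5 FPKM, against 10.2 for *Ppara* and 3.32 for *Pparg*. In the resistin family, *Retnlg*, a product of neutrophils, rose in skin (log2 fold change 2.0, SE 0.43, edgeR adjusted p = 0.0416, called in 2 of 6 fits without a library). *Retnla* was at 119.6 FPKM in control skin, about the level of *Retn* itself, and at 16.2 FPKM in IMQ-treated skin, with each IMQ library below each control (log2 fold change −2.78, SE 0.96, edgeR adjusted p = 0.143). Counts of such paralogs depend on how reads that match several genes were assigned, which was not stated.

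**Figure D4:**
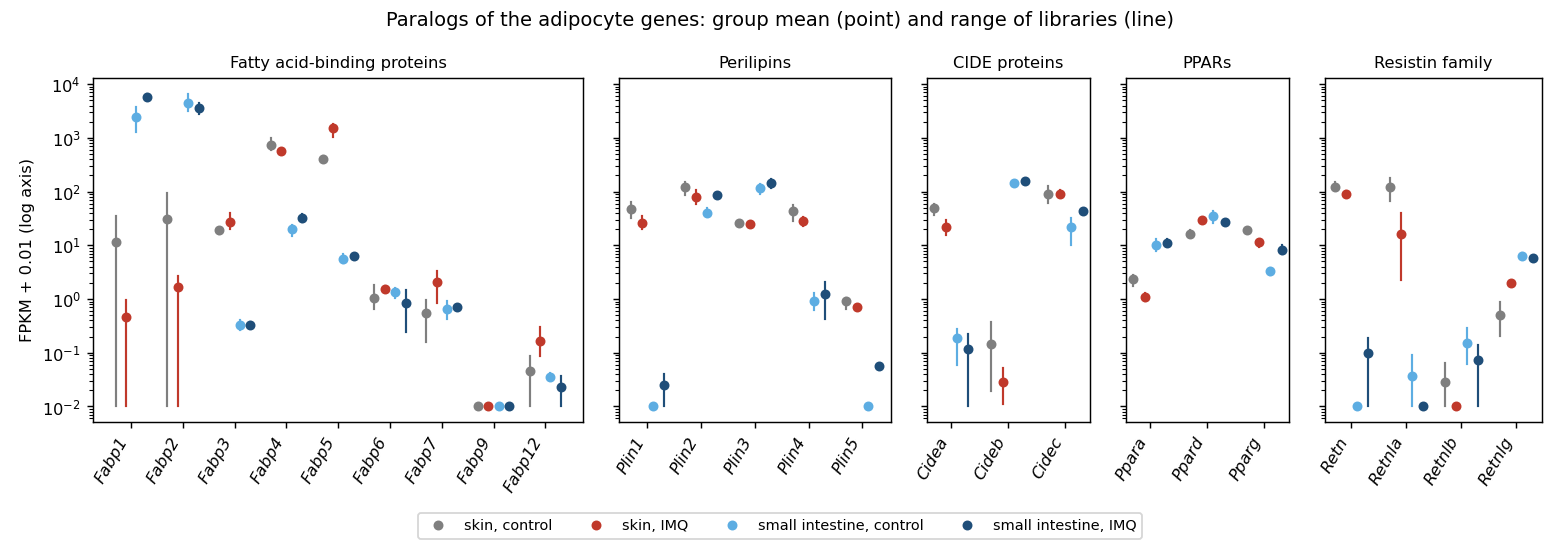
Mean FPKM (points) and range of the libraries (lines) of the 5 gene families in the 4 groups, on a log axis with 0.01 added. *Fabp4*, *Plin1*, *Cidea* and *Retn* were higher in skin, whereas *Fabp1*, *Fabp2*, *Plin3* and *Cideb* were higher in the small intestine.

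A further 79 genes of adipocyte pathways, in 9 lists, were examined in the same fits. In skin 77 were tested, of which 60 had a log2 fold change below 0 with a median of −0.36, and 10 were called, 9 lower and 1 higher, beside 6.74% of all genes. Without control library 2 the median was −0.23 and 9 were called, beside 2521 of all 20752 genes tested in that fit. The count was 4 without control library 1, 4 without IMQ library 4 and 2 without IMQ library 5. Over all genes the calls in these fits were 325 of 20720, 468 of 20797 and 258 of 20743, so calls fell over all genes as well. The calls of *Gpam*, *Npr3*, *Itih5*, *Lepr*, *Cidea* and *Ppara* held in 1 or 2 of 6 fits when single libraries were dropped. Between the control tissues 74 were tested, of which 48 were higher in skin and 16 higher in the small intestine, beside 4851 and 4947 of all 18890 genes tested (51.9% called). In the model of all libraries 73 were tested, and 5 had an interaction of tissue and treatment, beside 2.55% of all genes, with the response of the small intestine above that of the skin for *Elovl6*, *Srebf1*, *G0s2* and *Itih5* and below it for *Cd24a*. For the small intestine, 73 were tested with a median of 0.10, and 1 was called, beside 2.95% of all genes.

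In skin, the genes of fatty acid synthesis were below 0 in 9 of 9 (median −0.56, or −0.36 without control library 2). Each IMQ library lay below each control for 6, against 13.3% of all genes, but 1 fell. This was *Elovl6*, which elongates palmitate, at 184.1 FPKM in controls and 38.9 in IMQ-treated skin (log2 fold change −2.20, SE 0.30, edgeR adjusted p = 0.0107, called in 5 of 6 fits without a library). *Scd1*, the stearoyl-CoA desaturase, was the most abundant of this list at 962.8 and 361.1 FPKM (−1.39, SE 0.41, edgeR adjusted p = 0.0963), and *Fasn*, fatty acid synthase, was at 110.2 and 57.2 FPKM (−0.91, SE 0.29, edgeR adjusted p = 0.119). *Acly* gave −0.61 and *Me1* −0.35, or −0.08 for *Me1* without control library 2. These enzymes are also abundant in sebocytes, whose marker genes are given above.

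Of the genes of triglyceride synthesis, 8 of 10 were below 0 (median −0.54) or, without control library 2, 7 of 10 (median −0.34), and *Gpam*, the first acyltransferase of the pathway, fell (−0.81, SE 0.17, edgeR adjusted p = 0.0402). *Dgat2* at 99.8 FPKM in controls gave −0.57 (edgeR adjusted p = 0.274), *Gpd1* at 82.7 gave −0.83 (edgeR adjusted p = 0.0666), *Acsl1* at 69.3 gave 0.09 (edgeR adjusted p = 0.889) and *Agpat2* at 61.7 gave −0.84 (edgeR adjusted p = 0.0620). Without control library 2, *Dgat2* gave −0.30 and *Acsl1* 0.33.

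Of the genes of uptake of fatty acids and glucose, 8 of 10 were below 0 (median −0.38) or, without control library 2, 7 of 10 (median −0.15), and *Irs1*, an adaptor of the insulin receptor, fell from 6.93 to 2.69 FPKM (−1.32, SE 0.15, edgeR adjusted p = 0.00699, called in 6 of 6 fits without a library). *Lpl*, lipoprotein lipase, was at 164.9 and 93.7 FPKM (−0.77, SE 0.19, edgeR adjusted p = 0.0625). *Cd36*, the fatty acid translocase, gave −0.39 (edgeR adjusted p = 0.357), and *Cav1* and *Cavin1* of the caveolae gave −0.36 and −0.39. Leaving out control library 2 gave −0.15 for *Cd36* and −0.14 for *Cav1*.

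Lipolysis genes were below 0 in 8 of 9 (median −0.13), but in 4 of 9 without control library 2 (median 0.11). The sign of the list median thus rested on that library. *Npr3*, the clearance receptor of natriuretic peptides, fell from 5.70 to 1.18 FPKM (−2.23, SE 0.45, edgeR adjusted p = 0.0362). Without control library 2 *Npr3* gave −1.56 (edgeR adjusted p = 0.0135). *G0s2* gave −0.62 (edgeR adjusted p = 0.0528), or −0.65 without control library 2 (edgeR adjusted p = 0.0453). *Pnpla2*, the adipose triglyceride lipase, was at 62.4 and 57.1 FPKM (−0.09, SE 0.19, edgeR adjusted p = 0.831, or 0.11 without control library 2), and *Mgll* was at 184.4 and 93.9 (−0.94, SE 0.31, edgeR adjusted p = 0.130). *Abhd5*, the activator of *Pnpla2*, gave 0.48 (edgeR adjusted p = 0.182). Other products of fat cells were below 0 in 7 of 9 (median −0.84) or, without control library 2, 6 of 9 (median −0.62), and *Itih5* fell (−1.44, SE 0.28, edgeR adjusted p = 0.0328). *Rbp4*, the retinol carrier, gave −1.13 (edgeR adjusted p = 0.0856), or −0.71 without control library 2.

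Adipogenic transcription factors other than *Pparg* were below 0 in 7 of 10 (median −0.24), but in 5 of 10 without control library 2 (median −0.03). *Cebpd*, an early factor of adipogenesis that is also induced in inflammation, rose from 5.93 to 20.5 FPKM (1.83, SE 0.21, edgeR adjusted p = 0.00699, called in 6 of 6 fits without a library). *Cebpa*, the partner of *Pparg* in mature adipocytes, was at 112.3 and 92.2 FPKM (−0.23, SE 0.17, edgeR adjusted p = 0.468, or −0.14 without control library 2). Among adipokine receptors, *Lepr*, the receptor of leptin, fell from 13.1 to 2.84 FPKM (−2.10, SE 0.39, edgeR adjusted p = 0.0287), whereas *Adipor1* and *Adipor2*, the receptors of adiponectin, gave 0.20 and 0.30 without passing the test, or 0.31 and 0.52 without control library 2. The median of the 5 receptors was 0.20, or 0.23 without that library. The call of *Lepr* held in 1 of 6 fits without a library.

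Of 8 genes of brown and beige fat, 7 were tested and 3 fell, *Cidea*, *Dio2* (−2.10, SE 0.28, edgeR adjusted p = 0.0105) and *Ppara*, whereas without control library 2 *Dio2* alone fell. The median was −0.61, or −0.55 without that library. *Ucp1*, the uncoupling protein that defines brown fat, was near 0 at 0.0194 FPKM in control skin, and *Elovl3*, abundant at 114.8 FPKM, is also a gene of the sebaceous gland. Of 9 genes of fat cell precursors, 8 were tested and 0 were called by edgeR (median −0.08, or 0.15 without control library 2). At an unadjusted p under 0.05 there were 2, against 4753 of all 20512 genes. *Dcn* was at 789.4 and 768.1 FPKM and *Pi16*, a marker of progenitors in the reticular layer, was at 121.5 and 72.6 (−0.72, SE 0.28, edgeR adjusted p = 0.188), or −0.41 without control library 2.

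**Figure D5:**
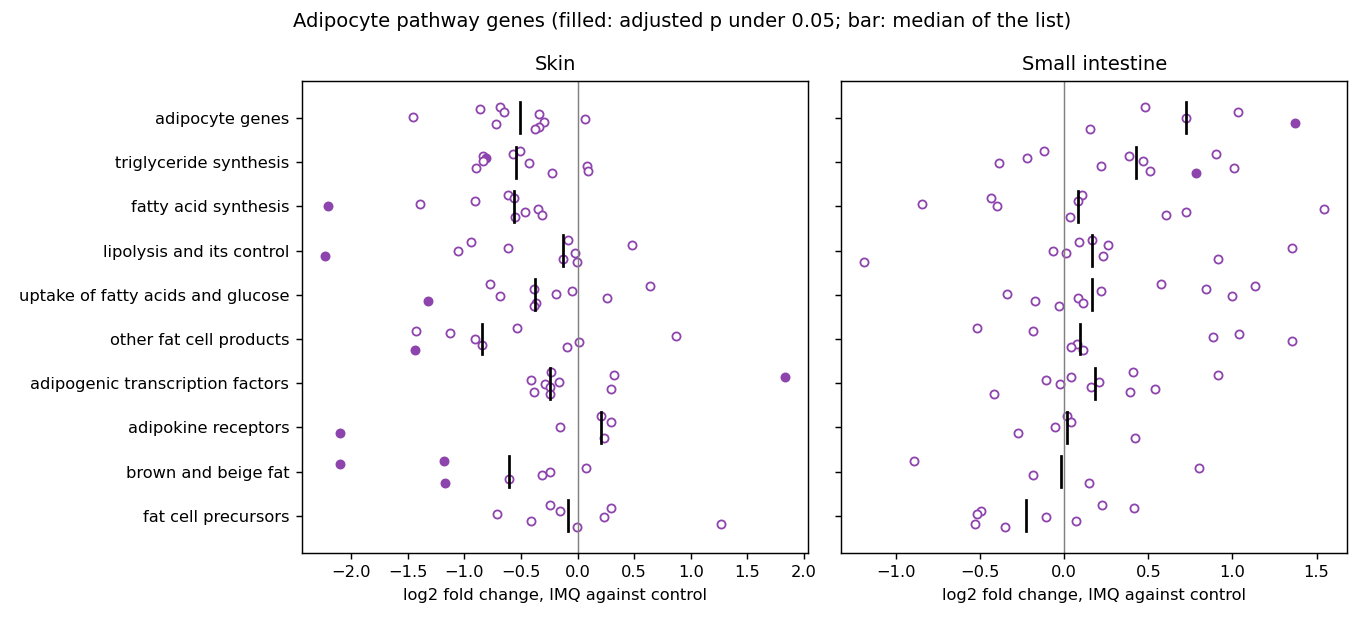
Log2 fold change of each tested gene of the 10 adipocyte genes and of the 9 pathway lists, by tissue (filled: adjusted p under 0.05; bar: median of the list). In skin the medians of 9 of the 10 groups lay below 0, with adipokine receptors at 0.20, and 7 of 10 without control library 2. In the small intestine the median of the adipocyte genes was 0.72, or 0.50 without IMQ library 10.

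In the small intestine *Pck1*, the enzyme of glyceroneogenesis and gluconeogenesis, was the 1 pathway gene that rose, from 66.4 to 110.8 FPKM (0.78, SE 0.15, edgeR adjusted p = 0.0444), a call that held in 0 of 5 fits without a library. *Me1* (1.55, edgeR adjusted p = 0.106), *Dgat2* (0.90, edgeR adjusted p = 0.125) and *Cd36* (0.84, edgeR adjusted p = 0.147) had each control below both IMQ libraries. This held for 24 of the 73 pathway genes tested, against 15.1% of all genes. For 8 of the 73, both IMQ libraries lay below each control, a direction whose share over all genes was not counted. Above 0 were 48 of the 73, or 38 in the fit without IMQ library 10, which left 1 library in that group. *Dgat1*, the most abundant gene of triglyceride synthesis in this tissue at 321.8 FPKM, gave −0.12 (edgeR adjusted p = 0.878). *Fasn* and *Scd1* were at 7.48 and 1.52 FPKM in control small intestine, far below skin, and gave 0.08 and −0.85 without passing the test.

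Finally, genes whose course over the 6 skin libraries was most like the mean of the 10 adipocyte genes were sought among 15767 genes with a mean of at least 50 normalized counts. Likeness was the root mean square difference on the log2 scale after each gene was centred on its own mean. The 10 nearest were *Wipf3* (0.07), *Fry*, *Gssos2*, *Arl4a*, *Dmtn*, *Nudt12*, *Msmo1*, *Cd1d1*, *Utrn* and *Mc2r* (0.10). The mean of the members was highest in skin control library 2 (0.80 on the centred log2 scale). Each of the 10 nearest genes was highest there too (0.62 to 0.87). They were chosen by likeness to that mean, so this is not a separate result. The search was not repeated without that library, and the members themselves form the mean they were compared with. Of the adipocyte genes themselves, *Lipe* was the nearest to their mean (0.11, rank 17) and *Plin4* (0.16, rank 77) and *Adipoq* (0.17, rank 100) followed. *Cidec* (0.33, rank 1867) and *Lep* (0.54, rank 10295) were the farthest, and the highest skin library of *Lep* exceeded its lowest 7.57-fold.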

How the data were processed

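RNA of 11 libraries was sequenced as paired-end reads. The authors trimmed the reads (bcl2fastq 2.20.0 and Trimmomatic in the submitters' processing notes), aligned them to mm10 with HISAT2 2.1.0 and quantified genes with StringTie 2.1.3b. The authors deposited 1 table with whole-number read counts per gene, not normalized. The same deposited table holds FPKM, scaled by the authors for transcript length and library size, and TPM deposited by the authors, which was left untested. The tool that made the counts, the handling of strand and that of reads matching several genes are not given in the sources used here. Of the 45777 genes, 14694 had no count in any library.

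Each library was assigned from its title. For each comparison, genes at 0 in any of its libraries were dropped (minimum 1 count), and the rest were normalized by relative log expression and tested with the quasi-likelihood F test of edgeR 4.0.16 in R 4.3.3. A gene was called at an adjusted p (Benjamini-Hochberg, over all genes tested) under 0.05. The standard error is the log2 fold change divided by the square root of F. Normalized counts were scaled within each tissue, so levels between tissues rest on FPKM, CPM (counts scaled to the library total) or the joint fit. Alternatives were TMM, DESeq2 1.42.0, the filterByExpr filter, no filter, limma 3.58.1 on log2(FPKM + 0.01) and log2(FPKM + 1), one fit of all 11 libraries, and each library left out. The scripts were tested on simulated data with 200 changed genes per comparison. Libraries held 44995414 to 58526384 counts. The spread between libraries sets the precision of abundant genes, and intervals of counts cover counting error only.

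The 10 members, the pathway, family and marker lists and the tests were chosen with earlier results of these data known. Named genes are the members, the up to 4 genes of each list with the highest mean FPKM in the control libraries of the tissue described, called genes where a list has at most 6, and the 10 nearest genes by pattern. Other genes were named after their values were seen. Of the lists, 1 gene was not in the table. Lists of pancreas (8 genes, 1 tested in the small intestine and 0 in skin), lymphoid tissue (7 genes, 1 called in skin and 0 in the small intestine, of which *Cxcl13* rose in skin) and neutrophils (7 genes, 6 of 6 tested rose in skin and 2 of 5 in the small intestine) were used as checks of other cells. The authors' comparisons between groups were not used.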

Additional observations from a re-analysis of the deposited data

Results flagged for a closer look

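The response of *Pparg* differed between the tissues. Its log2 fold change under IMQ was 2.10 higher in the small intestine than in the skin (SE 0.30, edgeR adjusted p = 0.00598 for the interaction of tissue and treatment), with both IMQ libraries of the small intestine above each control and the 3 IMQ libraries of the skin below each control. Groups held 2 or 3 libraries, so no library could be tested as an outlier within its group.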

How the results depend on the processing

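Of the 10 adipocyte genes in skin, 0 were called, and 2 with DESeq2, 1 with limma on log2(FPKM + 0.01), 1 in one fit of all 11 libraries, and 0 to 1 when single libraries were left out. In the small intestine 1 was called, 0 with limma on log2(FPKM + 1), and 0 to 1 without single libraries. Between control tissues 4 were called, and 9 with filterByExpr and 9 with no filter, which also test the genes absent from the gut. Of the pathway genes in skin 10 were called, 21 with DESeq2 and 6 with limma on log2(FPKM + 1). In fits without single libraries, which called 258 to 2521 of all genes, 2 to 13 of the pathway genes were called. For these genes in the small intestine 1 was called, 10 with DESeq2, 2 with filterByExpr and 0 to 3 without single libraries. Directions turned for *Cidec* in skin (−0.18 to 0.46 without single libraries), *Fabp4* in skin (−0.45 to 0.0345), *Plin4* in the small intestine (−0.95 to 1.18) and in its interaction (−0.28 to 1.82), and *Lipe* between control tissues (−0.38 to 0.12, 0.31 with limma on log2(FPKM + 0.01) and 0.30 with log2(FPKM + 1)). Beyond the construction of the alternatives, the causes were not tested. A group of 2 libraries in the small intestine limits its calls. No paired analysis was possible because the libraries of the groups share no replicate numbers.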

Other observations

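In the small intestine, 3 genes outside the 10 were also higher in IMQ-treated mice without passing the test, and they were chosen after their values were seen. *Apoa4*, an apolipoprotein of intestinal lipoproteins, was at 1078 to 3654 FPKM in the 3 controls and at 6629.6 and 10231 in the 2 IMQ libraries (log2 fold change 1.83, SE 0.58, edgeR adjusted p = 0.222). *Alpi*, the alkaline phosphatase of the villus, was at 157.9 to 243.2 and at 305.8 and 328 FPKM (0.74, SE 0.25, edgeR adjusted p = 0.2498). *Cebpb*, a factor of early adipogenesis and of the acute phase, was at 6.04 to 7.46 and at 10.48 and 13.74 FPKM (0.92, SE 0.18, edgeR adjusted p = 0.0514). *Apoa4* and *Alpi* belong to the 9 genes of the intestinal epithelium, of which the other 7 were below 0 (median of the list −0.22). For each of the 3, both IMQ libraries lay above each control, as for 15.1% of all genes.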
